A study of Mus musculus with 64 samples.

Results

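The SLC25 genes encode the mitochondrial carriers. Most of these transport proteins move nucleotides, phosphate, organic acids, amino acids and cofactors across the inner mitochondrial membrane. Among the exceptions, Slc25a17 is a peroxisomal cofactor carrier and Slc25a46 is a protein of the outer membrane. The SLC25 transcripts were described here in gastrocnemius muscle of HIF1α KO mice and their fl/fl littermates. Members were the protein-coding genes whose symbol is Slc25a followed by a number and that had at least 10 counts in at least 7 libraries. Of 47 such genes in the count table, 39 met this minimum, and all 39 passed the filter on low counts that left 15241 genes of 55401 for testing. The other 8 were Slc25a2, Slc25a18, Slc25a21, Slc25a31, Slc25a41, Slc25a43, Slc25a48 and Slc25a54, and their mean levels ranged from 0 to 0.341 CPM (counts per 1000000 counts of the library, scaled by TMM). Below, the family means the 39 members. Carriers with another kind of symbol, such as the uncoupling protein Ucp3, were left out by this rule.

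Fast glycolytic and oxidative fibers both depend on these carriers. The ADP/ATP carriers export the ATP that oxidative phosphorylation makes, and the phosphate carrier brings in the phosphate it needs. The aspartate/glutamate and oxoglutarate carriers form the malate-aspartate shuttle, which carries reducing equivalents from glycolysis into mitochondria, and the carnitine/acylcarnitine carrier admits fatty acids for oxidation. Other members carry iron, pyrimidine nucleotides, coenzyme A, glutathione or NAD+, and some have no settled substrate.

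The mice, aged 12 to 18 wk on a C57BL/6JBomTac background, were HIF1α KO mice (HSA-Cre+/- and HIF1α fl/fl) or fl/fl littermates (HSA-Cre-/- and HIF1α fl/fl), so both genotypes carried floxed Hif1a alleles. Cre was driven by the human α-skeletal actin promoter, which acts in muscle fibers, so the other cells of the muscle kept the gene. Mice ran on a treadmill for 60 min at 16 m/min and a 5% incline or stayed on a mock treadmill (sedentary), at zeitgeber time 3 (ZT3, in the light and inactive phase) or ZT15 (in the dark and active phase), and muscle was taken 3 h later. The 8 groups held 8 mice each, of both sexes, except for 7 exercised HIF1α KO mice at ZT3, where 1 library of 382 counts was left out. The comparisons asked how genotype, time of day and a bout of exercise changed these transcripts.

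Total counts of the 63 libraries ranged from 2359780 to 40377963 (median 16236352), and 3 libraries had fewer than 5000000. Counts over the whole Hif1a gene ranged from 28.8 to 49.7 CPM in HIF1α KO mice (n = 31) and from 25.9 to 57.3 CPM in fl/fl mice (n = 32). Only exon 2 is floxed, so a count over the whole gene checked nothing about the genotype labels. The defining genes of fast muscle were abundant in every library, led by Myh4 at 23182 to 89832 CPM. In bulk muscle, fewer cells of a type and less RNA per cell cannot be told apart. Mice were numbered in the labels, and the share of mitochondrial rRNA differed between runs of 16 consecutive numbers, with medians from 1.84% to 6.55% of counts. What these runs stand for is not given in the sources used here.

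On the scale of CPM per kb of annotated exon, used here to rank the genes, the ADP/ATP carrier of muscle, Slc25a4 (ANT1), stood far above the rest. It averaged 1255 CPM per kb, or 2952 ± 554 CPM (SD, n = 63, from 1959 to 4430 CPM). Slc25a4 alone made up 66.7% of the family's summed CPM, and the 5 members with the highest level per kb made up 86.5%. The whole family held 0.443% of all counts, with a sum of 3254 to 6249 CPM per mouse.

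The next 4 in this order were Slc25a11, the oxoglutarate/malate carrier, at 71.3 CPM per kb, Slc25a3, the phosphate carrier, at 60.9, Slc25a12, the aspartate/glutamate carrier aralar, at 49.1, and Slc25a5, the widely expressed ADP/ATP carrier ANT2, at 17.03. The ranges over mice of Slc25a11, Slc25a3 and Slc25a12 overlapped, so their order differed between mice, and the range of Slc25a5 lay below those of all 3. The order also depends on the length used, which took in all annotated exons of a gene. By mean CPM alone, Slc25a12 (361) and Slc25a3 (338) were above Slc25a11 (151). A processed pseudogene of Slc25a5 had at most 0.573 CPM in any library, and how reads matching several places were counted is not given in the sources used here. Slc25a20, the carnitine/acylcarnitine carrier, followed at 11.7 CPM per kb and Slc25a51, the NAD+ carrier, at 10.3. At the other end, 8 members averaged below 1 CPM per kb, among them Slc25a13 (citrin, the second aspartate/glutamate carrier of the genome) at 0.273 and Slc25a53 at 0.247.

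**Figure D1:**
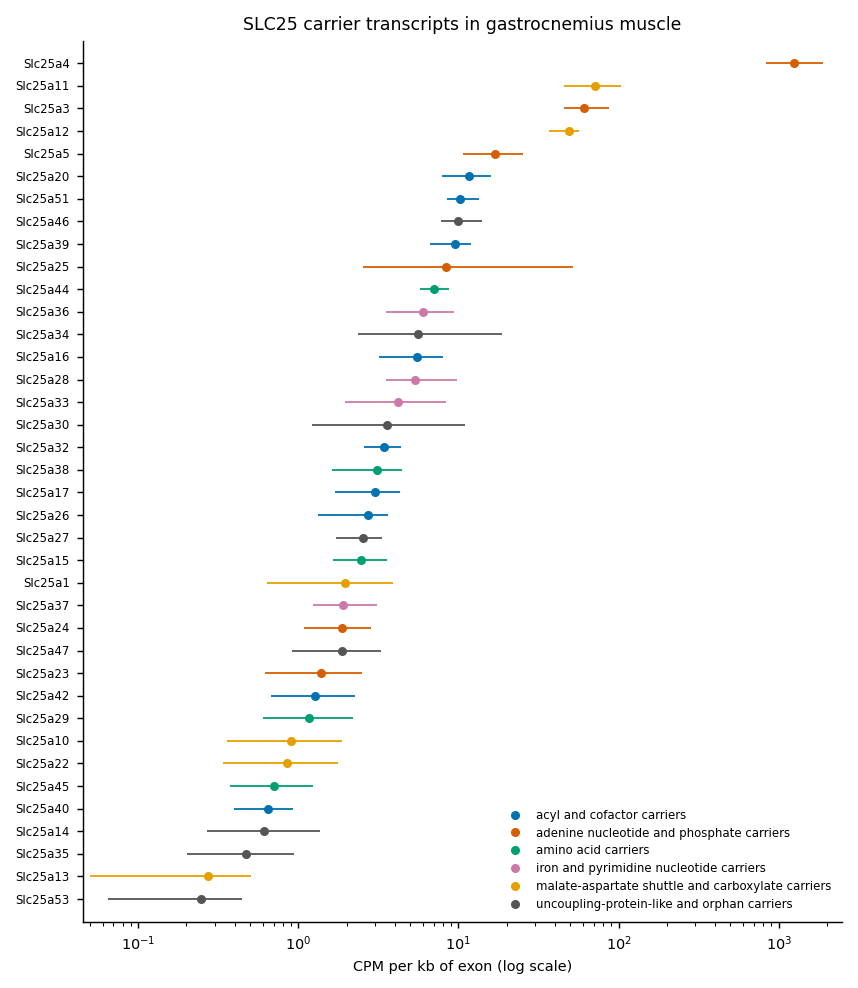
Level of carrier genes in 63 mice, in CPM per kb of exon on a log scale. Points are means over all mice, lines run from the lowest to the highest mouse (a value of 0 for Slc25a13 is drawn at the left edge), and colors give the transported class. Slc25a4 averaged 1255 CPM per kb, above the other members plotted.

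Members differed in their spread among mice of the same group and sex. The SD of log2 CPM within group and sex, with 0.5 CPM added to each value, had a median of 0.24 over the 39 genes. It was under 0.3 for 26 of them. The added value and the noise of low counts both weigh more on members at low levels, so members of unlike level compare only roughly. Slc25a12 was the most even, at 0.11, with a 1.54-fold span from the lowest to the highest of the 63 mice. Slc25a25, a calcium-regulated ATP-Mg/phosphate carrier, was the most uneven, at 0.80, with a 20.5-fold span from 19.9 to 407 CPM.

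More members passed for time of day than for genotype or exercise. Averaged over the 4 groups, 6 of the 39 members (15.4%) differed between ZT15 and ZT3 at an adjusted p under 0.1 (edgeR's quasi-likelihood test, adjusted over all genes by Benjamini-Hochberg), against 8.02% of all genes tested (4.09% higher and 3.92% lower). Slc25a30, Slc25a36, Slc25a37 and Slc25a35 were higher at ZT15, and Slc25a34 and Slc25a42 were lower. The median log2 fold change of the family was -0.01, and that of all genes was -0.003. The genes that moved were the uncoupling-protein-like and orphan carriers (2 of 8 higher and 1 lower), the iron and pyrimidine nucleotide carriers (2 of 4 higher) and the acyl and cofactor carriers (1 of 10 lower). None of the 6 adenine nucleotide and phosphate carriers, the 6 shuttle and carboxylate carriers and the 5 amino acid carriers passed.

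Slc25a30 (ENSMUSG00000022003.7, chromosome 14 of GRCm38 from 75760117 to 75787037, minus strand), a relative of the uncoupling proteins, changed most. Its level was 5.55 to 28.2 CPM at ZT3 (median 9.02, n = 31) and 11.2 to 49.95 CPM at ZT15 (median 17.2, n = 32). All 32 mice at ZT15 were above the ZT3 median, and 7 were above every mouse at ZT3, while the ranges overlapped. Within females the separation was clearer, since 15 of 16 females at ZT15 were above the highest of 16 females at ZT3 (11.3 CPM). The log2 difference was 0.82 (SE 0.10, adjusted p = 5.95e-09), a 1.77-fold higher level.

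The rise of Slc25a30 was of like size in each group. Its log2 difference was 0.94 (SE 0.20, adjusted p = 0.00454) in sedentary fl/fl mice and 0.92 (SE 0.20, adjusted p = 0.00672) in sedentary HIF1α KO mice. After exercise it was 0.73 (SE 0.20, adjusted p = 0.0554) in fl/fl mice and 0.70 (SE 0.20, adjusted p = 0.122) in HIF1α KO mice. In the model with a term for each group and sex, the change was 0.85 in females and 0.83 in males, and the difference was -0.03 (SE 0.18, adjusted p = 1.00).

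Slc25a36 (ENSMUSG00000032449.13, chromosome 9 from 97074961 to 97111157, minus strand) carries pyrimidine nucleotides. It had 33.7 to 71.4 CPM at ZT3 (median 49.1) and 50.3 to 90.1 CPM at ZT15 (median 64.1), and all 32 mice at ZT15 were above the ZT3 median. The log2 difference was 0.42 (SE 0.06, adjusted p = 1.56e-07), or 1.34-fold. By group it was 0.26 in sedentary fl/fl, 0.43 in exercised fl/fl, 0.55 in sedentary HIF1α KO and 0.45 in exercised HIF1α KO mice, and all but the first passed. The call in exercised fl/fl mice was lost when a term for the runs of mouse numbers was added (0.26, adjusted p = 0.270) and with the mitochondrial rRNA share (0.29, adjusted p = 0.339). The call in exercised HIF1α KO mice was lost with only the compared groups in the fit (0.46, adjusted p = 0.206) and with no filter on low counts (0.43, adjusted p = 0.133). The difference between sedentary genotypes was 0.29 (SE 0.16, adjusted p = 1.00) and was not shown.

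Slc25a34 (ENSMUSG00000040740.7, chromosome 4 from 141618824 to 141623821, minus strand), a carrier with no settled substrate, went the other way. Its level was 6.33 to 50.2 CPM at ZT3 (median 15.5) and 6.67 to 24 CPM at ZT15 (median 10.9), and 28 of 32 mice at ZT15 were below the ZT3 median. The log2 difference was -0.60 (SE 0.14, adjusted p = 0.00231), or 0.66-fold. Females at ZT3 had 11.8 to 50.2 CPM (median 17.7, n = 16) against 6.33 to 19.4 CPM (median 13.6, n = 15) in males. The change was -0.96 (SE 0.18, adjusted p = 0.000535) in females and -0.24 (SE 0.19, adjusted p = 0.624) in males. The difference between the sexes was 0.72 (SE 0.26, unadjusted p = 0.00819), and it did not pass after adjustment (adjusted p = 1.00).

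These 3 genes led the comparison by their p, and their promoters are shown for that reason. The sequences are RefSeq's for GRCm38.p6, from 250 bases before to 50 bases after the annotated start, written 5′ to 3′ on the strand of the gene. Capitals mark every match, on either strand, to the 6 motifs listed below.
Slc25a30 (chr14:75786988-75787287, minus strand): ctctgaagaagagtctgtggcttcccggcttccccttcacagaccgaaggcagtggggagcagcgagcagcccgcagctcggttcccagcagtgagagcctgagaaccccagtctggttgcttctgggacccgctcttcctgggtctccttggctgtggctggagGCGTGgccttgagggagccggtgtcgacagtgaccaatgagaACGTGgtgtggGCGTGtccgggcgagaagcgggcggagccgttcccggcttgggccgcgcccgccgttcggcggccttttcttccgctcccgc
Slc25a36 (chr9:97110992-97111291, minus strand): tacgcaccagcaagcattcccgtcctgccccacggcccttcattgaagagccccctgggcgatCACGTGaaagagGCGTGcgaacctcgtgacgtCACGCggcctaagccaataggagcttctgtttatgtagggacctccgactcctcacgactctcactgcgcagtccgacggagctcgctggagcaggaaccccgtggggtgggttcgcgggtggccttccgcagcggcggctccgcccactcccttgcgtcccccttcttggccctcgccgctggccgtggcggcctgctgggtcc
Slc25a34 (chr4:141623785-141624084, minus strand): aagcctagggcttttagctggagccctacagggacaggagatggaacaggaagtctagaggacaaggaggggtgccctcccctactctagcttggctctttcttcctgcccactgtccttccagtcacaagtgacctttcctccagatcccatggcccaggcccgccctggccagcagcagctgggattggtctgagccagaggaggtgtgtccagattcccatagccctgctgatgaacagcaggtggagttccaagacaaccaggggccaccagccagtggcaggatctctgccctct

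The letters searched were the E-box CACGTG, the D-box TTANGTAA and the REV-ERB/ROR element, which clock factors bind. The others were the hypoxia response cores ACGTG and GCGTG, and the glucocorticoid or androgen receptor element. The core ACGTG lies within every E-box, so their matches overlap. The Slc25a36 window held an E-box at position -187 from the start, and 7.15% of 32851 windows of all genes held one. The same window held GCGTG at positions -175 and -155. The Slc25a30 window held ACGTG at position -43 and GCGTG at positions -85 and -32, cores found in 19.6% and 32.4% of all windows, and no E-box. The Slc25a34 window held none of the 6 motifs. Windows were given for 30 of the 39 members (39 windows), of which 17.9% held an E-box, 25.6% ACGTG, 56.4% GCGTG and 2.56% a D-box, beside 2.32% of all windows for the D-box. Windows of the same gene can overlap, so the E-box of Slc25a14 was counted repeatedly. The windows of all genes were not matched to those of the members in GC content or expression, so these shares show no enrichment. The REV-ERB/ROR element and the receptor element were in 0 member windows, and in 0.219% and 0.00913% of all windows. Slc25a35 and Slc25a37 had no entry. A match is a string of letters and says nothing of binding.

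**Figure D2:**
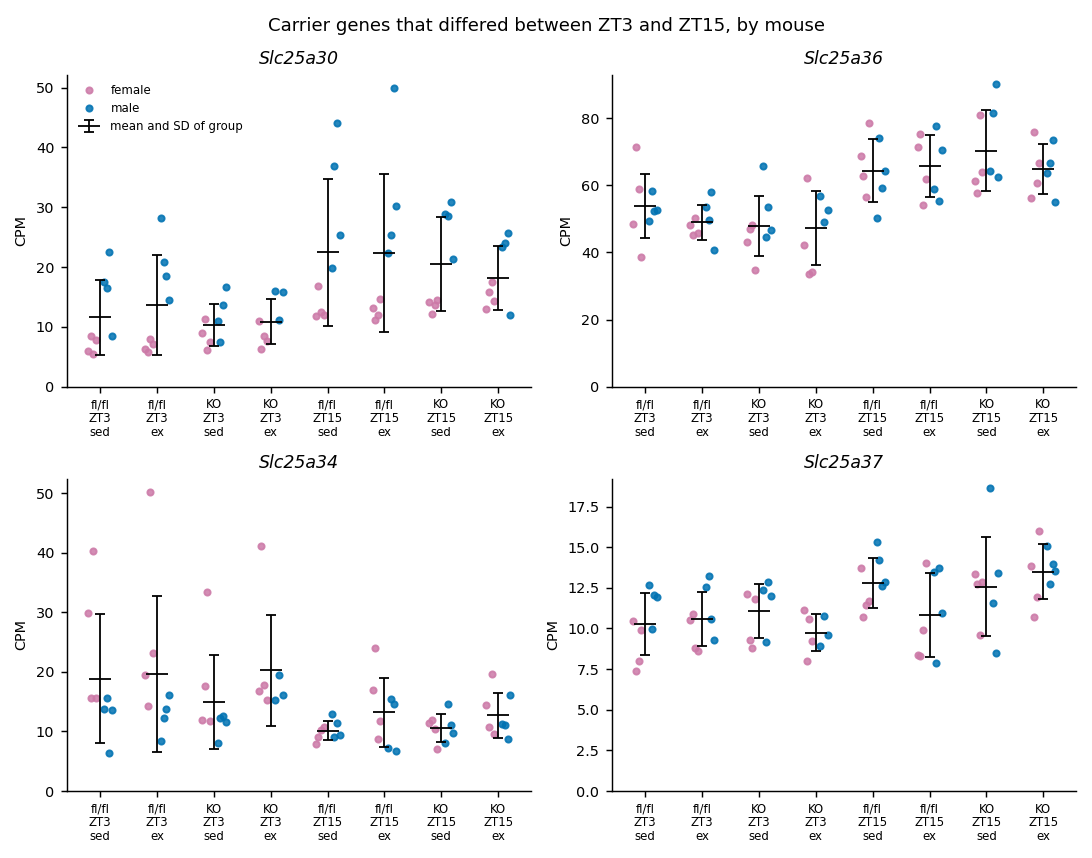
CPM of Slc25a30, Slc25a36, Slc25a34 and Slc25a37 in each mouse by genotype, time (ZT3 or ZT15) and treatment (sed, sedentary, ex, exercised). Points are mice colored by sex, and black bars are the mean and SD of the group of 7 or 8 mice. Slc25a30 rose at ZT15 in both sexes and was higher in males, and the highest Slc25a34 values were females at ZT3.

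Slc25a37, mitoferrin 1, which imports iron for heme and iron-sulfur clusters, had 7.38 to 13.2 CPM at ZT3 (median 10.5) and 7.87 to 18.6 CPM at ZT15 (median 12.8), and 14 of 32 mice at ZT15 were above every mouse at ZT3. Its log2 difference was 0.24 (SE 0.06, adjusted p = 0.00562). Erythroid cells use the same gene, and 0 of the 5 erythroid and blood genes passed in this comparison. Their summed level was 73.4 to 286 CPM at ZT15 and 76.9 to 529 CPM at ZT3, with no defining gene at 0 in any library. Of the 4 fibroblast genes, Pdgfra was higher at ZT15 (0.13, SE 0.04, adjusted p = 0.050), and the sum of the 4 was 702 to 1526 CPM at ZT15 and 680 to 1555 CPM at ZT3. The part of blood cells and of fibroblasts in the calls for time was not tested.

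Slc25a35, a second orphan carrier, had medians of 1.49 CPM at ZT3 and 1.91 CPM at ZT15 and a log2 difference of 0.39 (SE 0.11, adjusted p = 0.0127), and it was among the lowest members in level. Slc25a42, the coenzyme A carrier, had medians of 7.50 and 6.99 CPM and a log2 difference of -0.22 (SE 0.08, adjusted p = 0.0886), the weakest of the 6 calls, lost with no filter on low counts, with no sex term and without the libraries under 5000000 counts. In exercised fl/fl mice alone, Slc25a42 had 5.72 to 13.6 CPM at ZT3 (median 11.4) and 4.48 to 11.02 CPM at ZT15 (median 6.46), a log2 difference of -0.56 (SE 0.16, adjusted p = 0.0815). In the same mice Slc25a22, a glutamate carrier, had 4.72 to 9.61 CPM at ZT3 (median 7.38) and 2.63 to 5.31 CPM at ZT15 (median 3.82), a log2 difference of -0.82 (SE 0.24, adjusted p = 0.0936). Neither call held without the libraries under 5000000 counts, with the mitochondrial rRNA share as a covariate or with the runs of mouse numbers as a covariate.

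In the 4 single comparisons of ZT15 with ZT3, 1 member passed in sedentary fl/fl mice (1.88% of all genes passed), 4 in exercised fl/fl mice (1.18%), 2 in sedentary HIF1α KO mice (0.479%) and 2 in exercised HIF1α KO mice (0.663%). These counts moved with the model more than those of the averaged comparison. With the runs of mouse numbers as a covariate they were 5, 0, 2 and 2, and 0 of the exercised fl/fl mice at ZT3 came from the second run of numbers. Within each sex, 4 members passed for time in females (3.14% of all genes) and 2, Slc25a30 and Slc25a36, in males (2.36%). The difference in time effect between the sexes passed for 0 members in edgeR, with 2 at an unadjusted p under 0.05. The genotype by time interaction passed for 0 members and 0 genes in sedentary or exercised mice in edgeR. At an unadjusted p under 0.05 there were 1 and 8 members, beside 3.51% and 15.2% of all genes. DESeq2 called 0 members, and 2 of 35335 genes in sedentary and 29 of 12740 in exercised mice. The lowest adjusted p of a member was 0.217, for Slc25a23, a calcium-regulated ATP-Mg/phosphate carrier, whose time effect after exercise differed by 0.71 (SE 0.21) between genotypes.

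Genotype changed few members, and by small amounts. Averaged over the 4 combinations of time and treatment, 3 of 39 members (7.69%) passed, near the 8.26% of all genes (4.68% higher and 3.58% lower), and all 3 were higher in HIF1α KO mice. Among them were Slc25a11 and Slc25a12, carriers of the malate-aspartate shuttle. The family's median log2 fold change was 0.04, with 22 of 39 genes above 0, and that of all genes was -0.003.

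Slc25a11 (chromosome 11 from 70644196 to 70647479, minus strand) had 98.1 to 220 CPM in HIF1α KO mice (median 156) and 96.6 to 201 CPM in fl/fl mice (median 141), a log2 difference of 0.21 (SE 0.07, adjusted p = 0.0525). The overlap was wide, with 24 of 31 HIF1α KO mice above the fl/fl median. Slc25a12 (chromosome 2 from 71271063 to 71367749, minus strand) had 326 to 417 CPM (median 376) and 270 to 416 CPM (median 344), a log2 difference of 0.09 (SE 0.03, adjusted p = 0.0784), a 1.07-fold difference in the gene with the lowest spread among mice. The call for Slc25a12 was lost in 5 of 12 alternatives, among them RLE size factors and all 64 libraries. Slc25a4, on chromosome 8 from 46206797 to 46211284, had a log2 difference of 0.11 (SE 0.06, adjusted p = 0.280).

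Markers of nerve moved with genotype too. In HIF1α KO mice 3 of 4 nerve genes were lower, with a median log2 fold change of -0.43 over the 4. Their summed level was 33.1 to 154 CPM (median 58.98) in HIF1α KO and 37.9 to 177 CPM (median 72.4) in fl/fl mice, with no gene at 0 in any library. With a score of these genes as a covariate, chosen after seeing the data, neither Slc25a11 (0.13, adjusted p = 0.420) nor Slc25a12 (0.08, adjusted p = 0.295) passed, and the log2 difference of Slc25a12 moved little (0.09 without the score). Of the fibroblast genes, Pdgfra was lower in HIF1α KO mice, and 0 genes passed among the muscle, slow fiber, blood, adipose, immune and endothelial markers. Their part in these results was not tested further.

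No member passed in any single comparison of genotypes. The numbers were 0 of 39 in sedentary mice at ZT3 (0.4% of all genes passed), sedentary mice at ZT15 (0.0459%), exercised mice at ZT3 (1.43%) and exercised mice at ZT15 (0.4%), in edgeR and in DESeq2. At an unadjusted p under 0.05 they were 3, 3, 9 and 3, beside 6.81%, 10.6%, 17.4% and 7.41% of all genes. Within each sex, in a model added after seeing the data, genotype changed 8 members in males (13.1% of all genes) and 0 in females (0.873%, with 1 member at an unadjusted p under 0.05). Slc25a11 had a log2 difference of 0.38 (SE 0.09, adjusted p = 0.00996) in males and 0.04 (SE 0.09) in females. Slc25a30 was lower in HIF1α KO males by -0.43 (SE 0.13, adjusted p = 0.0366), with 7.56 to 30.96 CPM (median 16.6, n = 15) in HIF1α KO and 8.403 to 49.95 CPM (median 22.4, n = 16) in fl/fl males, and its change in females was 0.21 (SE 0.13). The difference between the sexes passed for 0 members in edgeR (0.0394% of all genes), with 6 at an unadjusted p under 0.05, and its lowest adjusted p was 0.462. DESeq2 was not run on this model. The shares of all genes at an unadjusted p under 0.05 in this model are not given here.

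**Figure D3:**
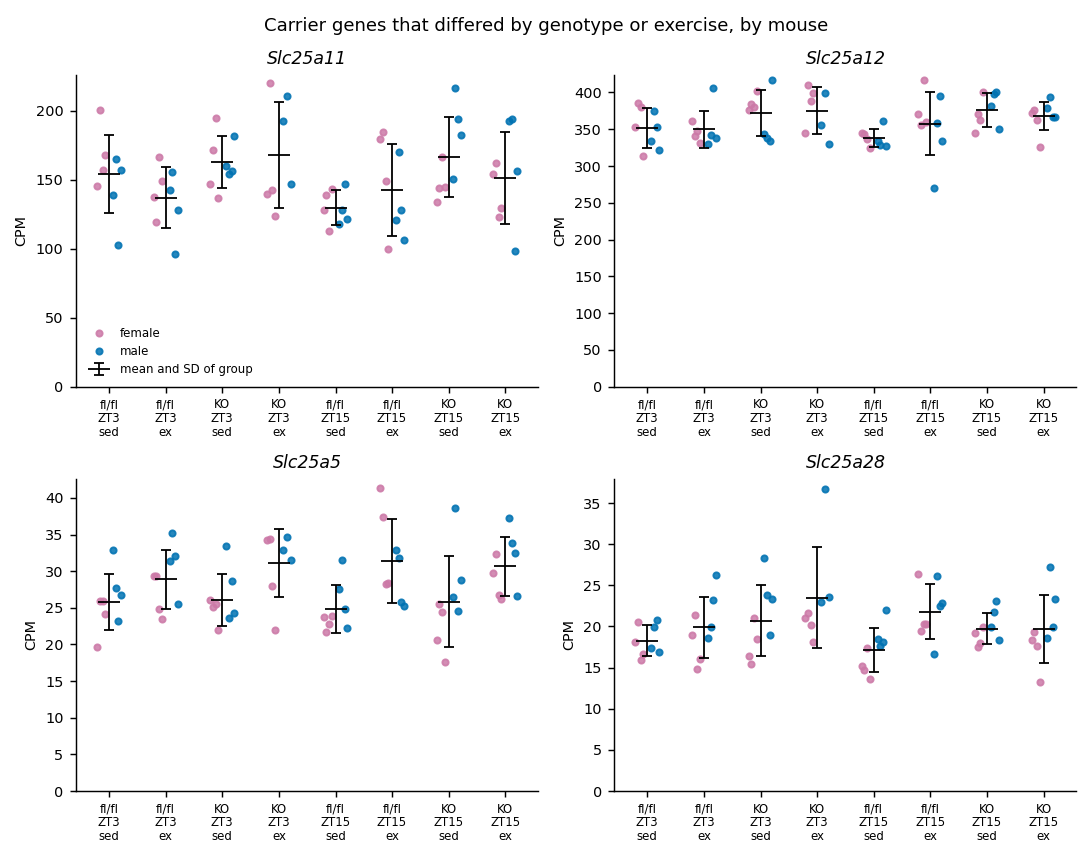
CPM of Slc25a11 and Slc25a12, which differed by genotype, and of Slc25a5 and Slc25a28, which differed by exercise, in each mouse by genotype, time and treatment (sed, sedentary, ex, exercised). Points are mice colored by sex, and black bars are the mean and SD of the group of 7 or 8 mice. The groups overlapped for all 4 genes, with medians of 156 CPM in HIF1α KO and 141 CPM in fl/fl mice for Slc25a11.

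Exercise raised 2 members, 3 h after the bout. Averaged over the 4 groups, 2 of 39 (5.13%) passed, against 2.84% of all genes (2.06% higher and 0.781% lower), and both were higher in exercised mice. Slc25a5 (chromosome X from 36795651 to 36798807, plus strand), the ADP/ATP carrier ANT2 found in most tissues, had 22.0 to 41.4 CPM in exercised mice (median 31.5, n = 31) and 17.6 to 38.6 CPM in sedentary mice (median 25.01, n = 32). Of the exercised mice, 28 of 31 were above the sedentary median. The log2 difference was 0.26 (SE 0.05, adjusted p = 0.00195), or 1.19-fold, and it was 0.17 and 0.35 in fl/fl mice and 0.27 and 0.24 in HIF1α KO mice at ZT3 and ZT15. The muscle ADP/ATP carrier Slc25a4 had a log2 difference of 0.01 (SE 0.06, adjusted p = 0.989) in the same comparison.

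Slc25a28, mitoferrin 2, the iron carrier of non-erythroid cells, had 13.2 to 36.8 CPM in exercised mice (median 20.3) and 13.6 to 28.3 CPM in sedentary mice (median 18.4), a log2 difference of 0.17 (SE 0.05, adjusted p = 0.0883). All 8 slow fiber markers had positive log2 fold changes with exercise (median 0.30), although none passed, and their summed level was 384 to 4060 CPM in exercised and 417 to 1921 CPM in sedentary mice. With the slow fiber score as a covariate Slc25a28 no longer passed (0.15, adjusted p = 0.230), and Slc25a5 did. Slc25a25 had a log2 difference of -0.58 (SE 0.21, adjusted p = 0.187), the lowest of the family, and did not pass.

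In the 4 single comparisons of exercised with sedentary mice, 0 members passed in edgeR or in DESeq2. The shares of all genes that passed in edgeR were 0.236% in fl/fl mice at ZT3, 0% in fl/fl mice at ZT15, 0.131% in HIF1α KO mice at ZT3 and 0.0591% in HIF1α KO mice at ZT15. At an unadjusted p under 0.05 the members were 3, 5, 1 and 3, beside 13.8%, 9.23%, 5.07% and 5.54% of all genes. Within each sex, Slc25a5 alone passed in females (1.8% of all genes) and 0 members in males (0.184%), with 4 members at an unadjusted p under 0.05 in each, and the difference between the sexes passed for 0 members, with 1 at an unadjusted p under 0.05. The time by exercise and genotype by exercise interactions passed for 0 members and 0 genes in edgeR. At an unadjusted p under 0.05 there were 5 members for time by exercise in fl/fl mice, 1 in HIF1α KO mice, and 2 and 4 for genotype by exercise at ZT3 and ZT15. The shares of all genes, in the same order, were 18.8%, 2.24%, 4.61% and 9.11%. DESeq2 called 0 members in each, and 505 of 7257 genes with an adjusted p for time by exercise in fl/fl mice, 1 of 35335 for genotype by exercise at ZT3 and 0 in the other two. The lowest adjusted p of a member in edgeR was 0.165.

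**Figure D4:**
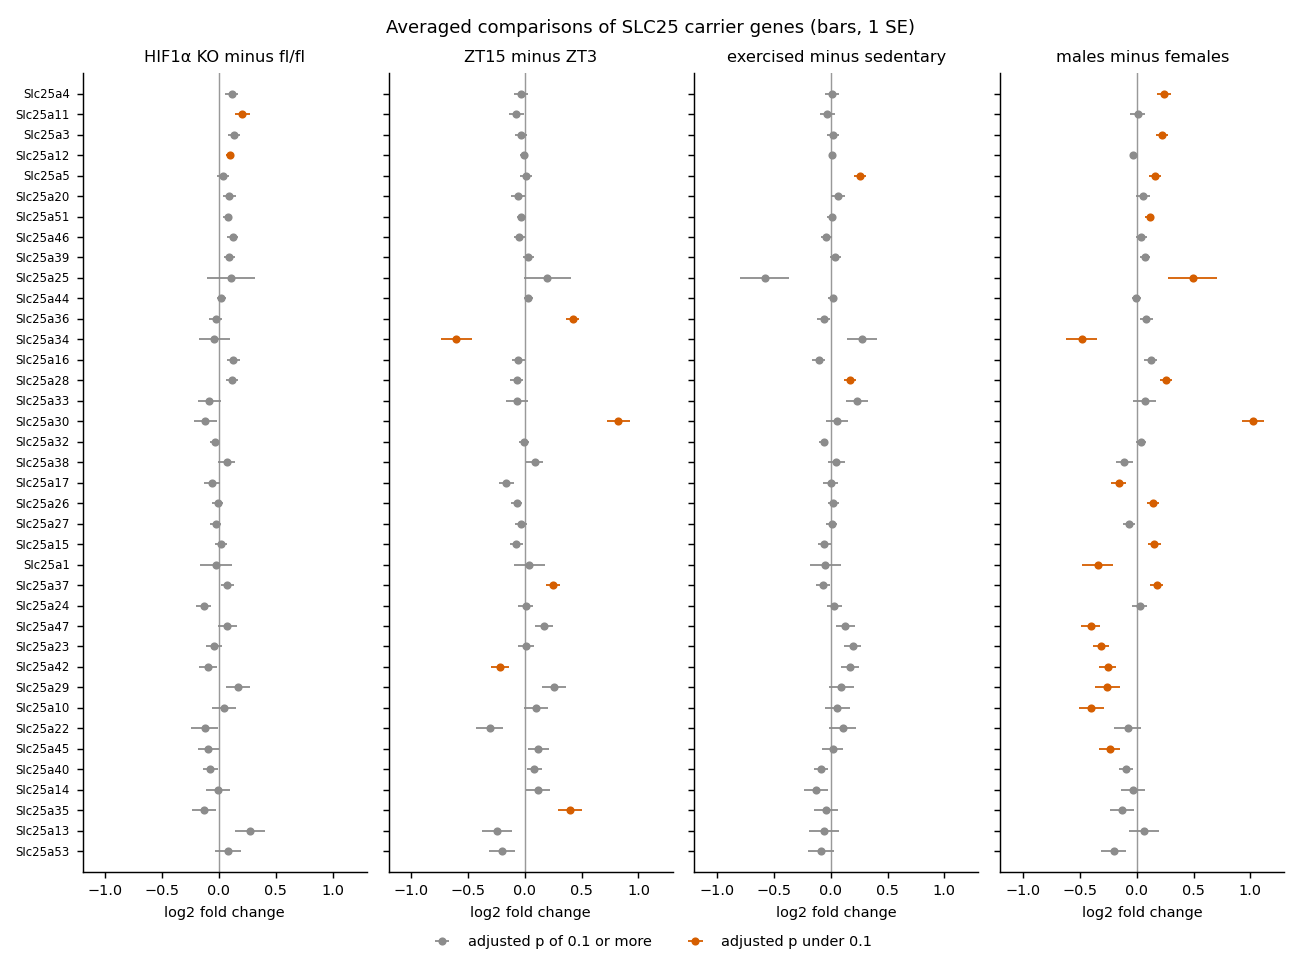
Log2 fold change of carrier genes, ordered by level per kb, in the 4 averaged comparisons. Bars are 1 SE, and orange marks an adjusted p under 0.1 in edgeR. In the comparisons of time, exercise and sex 6, 2 and 19 members are marked, and in that of genotype Slc25a11 and Slc25a12 are.

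In the model without a marker score, more members passed for sex, a covariate in the other comparisons, than for genotype, time or exercise. Between 31 males and 32 females, 19 of 39 members (48.7%) passed, against 25.1% of all genes (13.3% higher and 11.8% lower), with 10 higher and 9 lower in males. The adenine nucleotide and phosphate carriers were mostly higher (4 of 6 higher and 1 lower), and so were both mitoferrins. Of these 4, Slc25a25 (0.49, SE 0.21, adjusted p = 0.0996) was high in some males only, with 19.9 to 407 CPM in males (median 42.6) and 27.7 to 80.4 CPM in females (median 48.5), so that 17 of 31 males were below the female median and 8 were above every female. The carboxylate carriers Slc25a1 (citrate) and Slc25a10 (dicarboxylate) were lower. The family's median was 0.02 on the log2 scale, and that of all genes was -0.01.

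Slc25a30 had the largest difference. It had 5.55 to 17.5 CPM in females (median 11.2, n = 32) and 7.56 to 49.95 CPM in males (median 21.3, n = 31), and 20 of 31 males were above every female. The log2 difference was 1.02 (SE 0.10, adjusted p = 9.95e-13), or 2.03-fold, and it was 1.04 at ZT3 and 1.01 at ZT15. By sex and time, its medians were 7.51 CPM in females at ZT3, 13.4 in females at ZT15, 15.9 in males at ZT3 and 25.5 in males at ZT15.

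The highly expressed Slc25a4 and Slc25a3 were higher in males by 0.24 (SE 0.06, adjusted p = 0.00167) and 0.22 (SE 0.05, adjusted p = 0.000834) on the log2 scale. Slc25a4 had 1959 to 4120 CPM in females (median 2713) and 2298 to 4430 CPM in males (median 3162), and Slc25a3 had 253 to 428 CPM (median 293) and 271 to 483 CPM (median 354). Slc25a28 was higher by 0.26 (SE 0.05, adjusted p = 0.000175). Slc25a47, a carrier known mainly from liver, and Slc25a23 were lower in males, by -0.40 (SE 0.08, adjusted p = 0.000138) and -0.31 (SE 0.07, adjusted p = 0.000954). Slc25a47 had 3.93 to 9.81 CPM in females (median 6.17) and 2.74 to 8.38 CPM in males (median 4.70). Each of these genes overlapped between the sexes.

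Cell and fiber type markers differed between the sexes in the same libraries. All 8 slow fiber genes were lower in males (median -0.86), with a summed level of 384 to 1886 CPM (median 872) in males and 717 to 4060 CPM (median 1481) in females. Of 6 adipose genes 5 were lower (median -0.76), with sums of 147 to 520 CPM (median 241) and 178 to 599 CPM (median 354). All 4 nerve genes and 3 of 4 fibroblast genes were lower in males, and 3 of 5 erythroid and blood genes were higher. Of the defining genes of fast muscle, Ckm (0.15), Tnni2 (0.25) and Tnnt3 (0.18) were higher in males and Myh2 (-0.35) was lower. No gene of these lists was at 0 in any library.

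With the slow fiber score as a covariate 7 members passed in the comparison of the sexes, 6 of them among the 19. With an adipose score, added after seeing the data, 9 of the 19 passed. Slc25a4 was not among these 9 (0.18, SE 0.07, adjusted p = 0.110). With both scores 5 of the 19 passed, namely Slc25a30, Slc25a28, Slc25a3, Slc25a4 and Slc25a5, all higher in males. Slc25a30 was then 0.90 (SE 0.14, adjusted p = 3.27e-06) on the log2 scale. Slc25a10 went from -0.40 to -0.06 with the adipose score (SE 0.11, adjusted p = 0.876), and Slc25a1 from -0.34 to 0.03 (SE 0.14, adjusted p = 0.944). The share of all genes that passed with a score in the model is not given here. The drops from 19 therefore cannot be read as particular to the carriers. The part of other sex-linked differences was not tested.

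**Figure D5:**
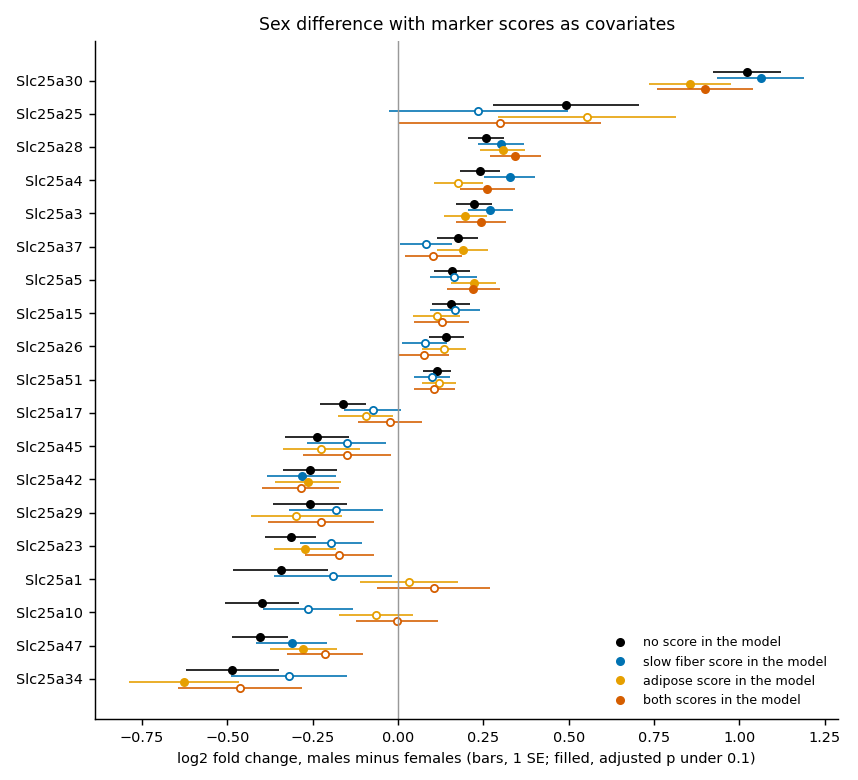
Log2 fold change between males and females of the 19 members that passed, without a marker score in the model and with the slow fiber score, the adipose score or both. Bars are 1 SE, and filled points have an adjusted p under 0.1. Slc25a30 stayed between 0.86 and 1.06, and the values of Slc25a1 and Slc25a10 with the adipose score lay near 0.

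Other genes of mitochondrial transport gave a frame for the family. The list of 20 other transport proteins tested held genes without an Slc25a symbol, Ucp3 and Mtch1 among them. Of these, 2 were higher in HIF1α KO mice, beside 8.26% of all genes that passed. They were Mpc1, a subunit of the mitochondrial pyruvate carrier (0.17, SE 0.06, adjusted p = 0.0998), and Abcb10, a transporter needed for heme synthesis (0.13, SE 0.04, adjusted p = 0.0633). With time of day 0 of 20 passed (edgeR), beside 8.02% of all genes. With exercise only Mtch1, an outer membrane relative of the carriers, passed (0.18, SE 0.05, adjusted p = 0.0209), beside 2.84% of all genes. The 10 genes of the import machinery that inserts carriers into the inner membrane gave 0 calls for genotype, time and exercise. Their median log2 fold changes were 0.11, -0.03 and 0.003, and for genotype 9 of 10 were above 0.

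Among 20 enzymes that work with the carriers, Gpd2, the mitochondrial enzyme of the glycerol phosphate shuttle, was higher in HIF1α KO mice (0.19, SE 0.04, adjusted p = 0.00112), and so was Alas1, which starts heme synthesis (0.16, SE 0.05, adjusted p = 0.0475). Gpd2 (-0.11, adjusted p = 0.0946) and Nadk2, the mitochondrial NAD kinase (-0.12, adjusted p = 0.0661), were lower at ZT15. Got1, the cytosolic aspartate aminotransferase of the malate-aspartate shuttle, was higher after exercise (0.23, SE 0.06, adjusted p = 0.0155). Between the sexes 5 transport proteins were higher and 1 lower in males, 2 import genes were higher and 1 lower, and 6 enzymes were higher and 8 lower, led by Ak4, a mitochondrial adenylate kinase, at -1.45 (SE 0.13, adjusted p = 1.81e-14).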

How the data were processed

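Gastrocnemius RNA was measured by poly(A) RNA-seq (TruSeq Stranded mRNA). The authors deposited raw read counts per Ensembl gene, made with STAR and featureCounts on mm10 by the submitters' processing notes. Versions, annotation release, strand setting and treatment of multi-mapping reads are not given in the sources used here. Every count column matched the labels of 1 mouse, and 1 library of 382 counts was left out.

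From the deposited counts, gene names were taken from GENCODE M21 (55141 of 55401 matched), genes were filtered with filterByExpr (minimum count 10), scaled by TMM and fitted in edgeR 4.0.16 (R 4.3.3) with robust quasi-likelihood, a term for each of 8 groups and a term for sex. Each of 22 comparisons was adjusted over all genes by Benjamini-Hochberg, with a threshold of 0.1. SE is the log2 fold change over the square root of F. Interaction and within-sex comparisons used the same test. Alternatives were DESeq2 1.42.0, other scaling, filters, samples, thresholds and covariates (12 planned), and 3 marker scores and the within-sex fits added after seeing the data. The fit was tested on simulated data.

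Members and lists were chosen with earlier results of these data known. Any member may be named, and those past the threshold (at most the 6 lowest p for each comparison) and the 5 highest per kb were given with full values, except 1 gene that is not reported here. Of the other lists, up to 4 genes past the threshold were named. Mice were separate animals, and nothing in the labels says which shared a cage or litter. Total counts ranged from 2359780 to 40377963, so genes at a few CPM rest on few reads in the shallowest libraries.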

Additional observations from a re-analysis of the deposited data

Results flagged for a closer look

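Within the groups of 7 or 8 mice, 128 sets of values of the members with full values were checked for 1 mouse far from the others, and 11 were found. By the 95% critical values used, chance flags about 1 in 20 sets. The sets hold both sexes, and the cause was not tested. Slc25a34 had such a mouse in 3 of the 4 groups at ZT3, at 41.1 CPM (next 19.4) in exercised HIF1α KO, 33.5 (next 17.6) in sedentary HIF1α KO and 50.2 (next 23.1) in exercised fl/fl mice, and all 3 were females. Slc25a12 was lowest at 326 CPM (next 363) in exercised HIF1α KO mice at ZT15 and highest at 406 (next 362) in exercised fl/fl mice at ZT3. Slc25a22 was highest at 10.6 CPM (next 5.73) in exercised HIF1α KO mice at ZT3 and at 8.85 (next 5.19) in sedentary fl/fl mice at ZT15. Slc25a28 reached 36.8 CPM (next 23.6) in exercised HIF1α KO mice at ZT3. Slc25a23 reached 9.75 CPM (next 7.50) in sedentary HIF1α KO mice at ZT15. Slc25a42 reached 11 CPM (next 7.08) in exercised fl/fl mice at ZT15, and Slc25a47 reached 7.87 CPM (next 5.05) in sedentary fl/fl mice at ZT3.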

How the results depend on the processing

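Of 304 values of named genes under an alternative, 250 stayed past the threshold, 54 did not and 0 changed sign. Of the counts of members, 231 stayed within 1.5 times, and the other 31 follow. The 231 include every count of 0 that stayed at 0, as for the interactions, so they overstate how stable the calls were. The cause of these moves was not tested. The 3 genotype calls became 1 at an adjusted p under 0.05, with no filter beyond 1 count and with the nerve score, and the 0 in exercised mice at ZT15 became 1 with the mitochondrial rRNA share. For time, the 1 call in sedentary fl/fl mice became 3 with DESeq2, 5 with runs of mouse numbers, 2 with the rRNA share and 0 without the sex term. The 4 in exercised fl/fl mice became 0 at 0.05 and with runs of mouse numbers, 1 with the rRNA share, no filter or no sex term, and 2 without libraries under 5000000 counts. The 2 in sedentary HIF1α KO mice became 1 without the sex term. The 2 in exercised HIF1α KO mice became 0 at 0.05 or with no filter, and 1 with the rRNA share, no sex term, only the compared groups, the slow fiber score or without libraries under 5000000. The 2 exercise calls became 1 at 0.05, with all 64 libraries, no filter, no sex term or the slow fiber score. The 19 calls between the sexes became 12 with no filter, 7 with the slow fiber score, 9 with the adipose score and 5 with both. No paired analysis was possible because the numbers in the labels name single mice and no number is shared between groups. Depth limits the members at the lowest levels, such as Slc25a35.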
